A study of Mus musculus with 9 samples.

Results

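The 10 genes described here are the transcription factor NRF2 (Nfe2l2), its inhibitor Keap1 and 8 genes known as NRF2 targets in antioxidant defence, Nqo1, Hmox1, Gclc, Gclm, Txnrd1, Srxn1, Slc7a11 and Gsr. They were chosen by name, and all 10 were found among the 41710 gene names of the deposited tables, where the transcripts of a gene were added up. The transcriptome was measured by RNA sequencing in hearts of male FVB/N mice at an age of 8 months, with 3 libraries of Tg-RKIP mice, 3 of FVB mice without a transgene and 3 of mice labelled Tg-GRK2, and the FVB libraries are the controls of both transgenic groups. Tg-RKIP mice carry an RKIP transgene under the alpha-MHC promoter, which is active in cardiomyocytes, while the promoter of the GRK2 transgene is not given in the sources used here. Whole hearts were processed, so a transcript can come from any cell of the heart, and fewer cells of a type and less RNA per cell cannot be told apart. The labels number the libraries as replicates 1 to 3 in each group, and the authors give 3 hearts each for Tg-RKIP and FVB. The p-values measure the spread between these libraries only. The mean squared difference in counts between paired-off libraries was 1.7 to 2.1 times that of random sampling in Tg-RKIP and 1.9 to 2.9 times in FVB. In the group labelled Tg-GRK2 it was 2.0 to 27.7 times.

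NRF2 is a basic leucine zipper protein that pairs with small MAF proteins and binds antioxidant response elements in the promoters and enhancers of its target genes. In resting cells, KEAP1 holds NRF2 in the cytosol and brings it to the CUL3 ubiquitin ligase, so that NRF2 is degraded. Oxidants and electrophiles modify cysteines of KEAP1, NRF2 then accumulates, and genes of glutathione synthesis, thioredoxin reduction, quinone reduction and heme breakdown are transcribed. Because this control acts mainly on the protein, the transcript level of Nfe2l2 does not give the activity of NRF2. In the heart, which has a high oxygen use, the pathway is known for its role in defence against reactive oxygen species.

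The core of the antioxidant response element was searched as TGACNNNGC on both strands of the RefSeq promoter windows of mouse build GRCm38.p6, which run from 250 bases before to 50 bases after a gene's start. For 7 of the 10 genes a window was matched by symbol, and Hmox1, Gclc and Gsr were not matched. Matches were found in windows of 4 of these genes, Nfe2l2, Gclm, Txnrd1 and Srxn1, with 1 match each, and no match was found in the windows of Keap1, Nqo1 and Slc7a11. The same letters occur in 12.4% of all 32817 windows, and 14% of the 26994 gene symbols have them in a window. A match alone thus describes the sequence and is not a binding site. Of the 4 genes with a match, Nfe2l2, Gclm and Srxn1 fell in the hearts labelled Tg-GRK2, and Txnrd1 did not pass in any comparison. Of the genes whose windows lack a match, Nqo1 also fell there, while Keap1 and Slc7a11 did not pass. All 4 matches found are shown. Each is printed 5′ to 3′ on the strand of the gene with 10 bases on each side, and capitals mark the 9 letters of the match.
Nfe2l2: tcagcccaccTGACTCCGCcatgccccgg
Gclm: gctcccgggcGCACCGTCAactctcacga
Txnrd1: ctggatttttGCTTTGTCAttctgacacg
Srxn1: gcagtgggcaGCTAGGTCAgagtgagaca
The stretch of Nfe2l2 lies at chr2:75704885-75704913 on the minus strand, with the match starting 240 bases before the gene's start. The stretch of Gclm lies at chr3:122245413-122245441 on the plus strand, 134 bases before the start, and that of Txnrd1 at chr10:82859104-82859132 on the plus strand, 92 bases before the start of 1 of its 3 windows. The stretch of Srxn1 lies at chr2:152105542-152105570 on the plus strand, 28 bases after the start. In Gclm, Txnrd1 and Srxn1, the core reads on the opposite strand of the gene.

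Libraries held between 25458108 and 33447654 reads. As a check of the labels, Pebp1, which encodes RKIP, was at 325 ± 4.54 TPM in FVB and at 16199 ± 208 TPM in Tg-RKIP libraries (SD, n = 3 each), where TPM is a level per transcript length that sums to the same total in every library. Grk2, in contrast, was at 27.1 ± 1.05 TPM in FVB and at 27.3 ± 2.90 TPM in hearts labelled Tg-GRK2 (SD, n = 3 each), so this transcript goes against the label, and the group is named by its label. Library 1 of this group stood apart, with 384039 reads of the ribosomal RNA gene Rn18s against 55110 to 78546 in the other 8 libraries. Mitochondrial genes took 11.5% to 11.8% of the reads of Tg-RKIP libraries, 22.4% to 22.9% of those labelled Tg-GRK2 and 22.9% to 23.2% of FVB. Fold changes depended on the scale. The median log2 fold change of all 15504 genes tested in Tg-RKIP against FVB was 0.0085 when counts were normalised by the TMM method, which is used here for every test, but 0.38 when scaling used the library size alone. In a limma fit of log2(TPM + 0.1) over 13478 genes the median was 0.43. A gene that keeps pace with all others thus has a higher TPM in Tg-RKIP than in FVB libraries, and TPM differences between these groups are given together with the TMM value. Among genes past the threshold, the share that was higher in Tg-RKIP was 49.8% with TMM and 78.6% with library size only.

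In FVB hearts, Nqo1 had the highest level of the 10 genes, at 56.4 ± 2.64 TPM, followed by Nfe2l2 at 50.5 ± 1.41 TPM (SD, n = 3 each). Txnrd1, Gclm and Keap1 came next at 28.8 ± 1.21, 25.6 ± 0.815 and 20.2 ± 0.892 TPM. Srxn1 was at 14.0 ± 0.101 TPM, Gsr at 12.2 ± 0.753, Hmox1 at 9.22 ± 0.384 and Gclc at 7.57 ± 0.458 TPM. Slc7a11 was barely measured, with 2 to 22 reads in any library and 0.0956 ± 0.0640 TPM in FVB hearts. The ranges of the 3 FVB libraries did not overlap between any neighbours in this order. For the other 9 genes, the lowest count in any library was 217 reads and the highest 3606.

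**Figure D1:**
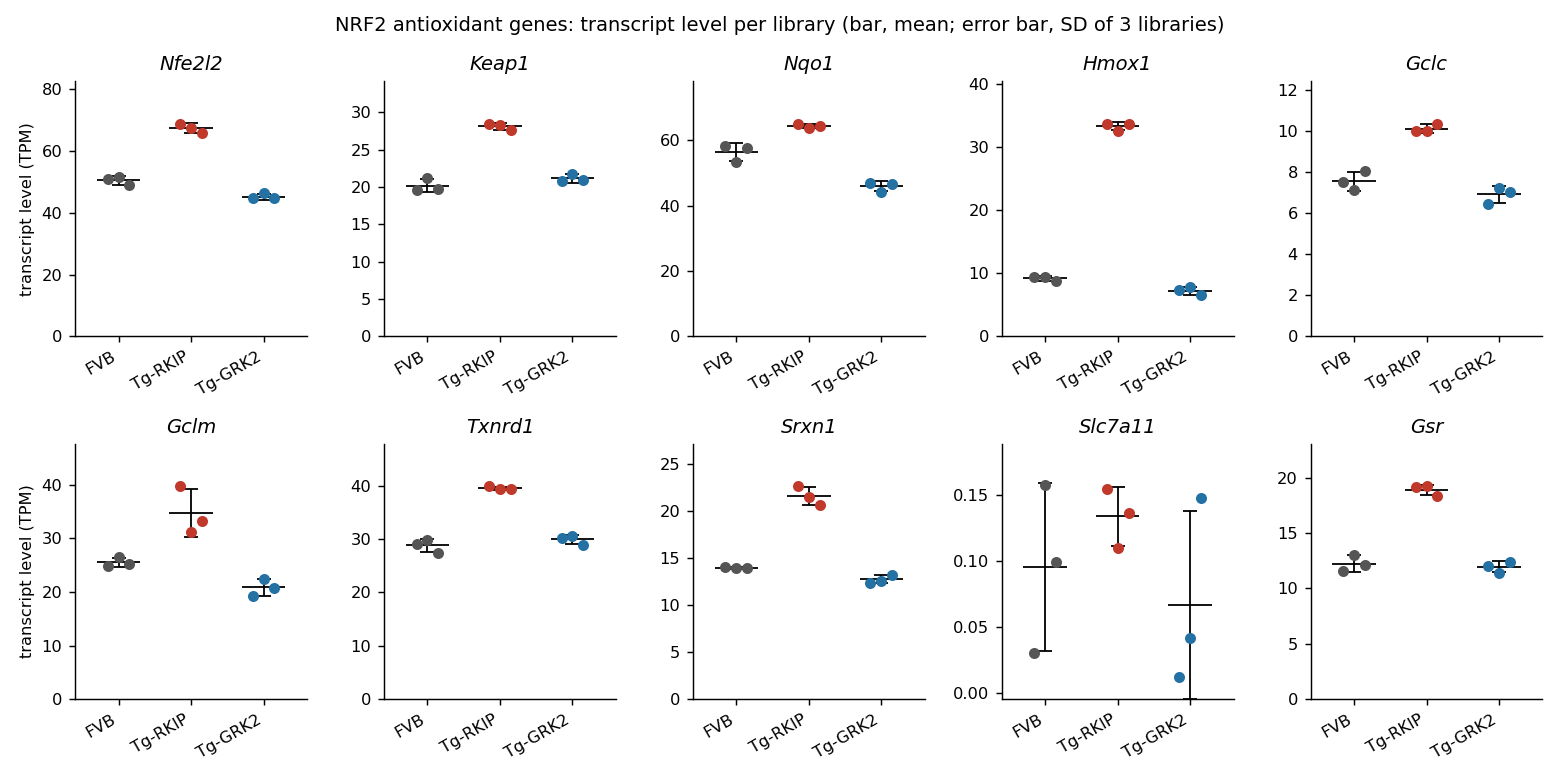
Transcript level in TPM of each gene (1 panel each, vertical axis from 0 or just below) in the 3 FVB, 3 Tg-RKIP and 3 Tg-GRK2 labelled libraries, with points for libraries, a bar for the mean and an error bar for the SD. Hmox1 lies at 32.7 to 33.8 TPM in Tg-RKIP and below 10 TPM elsewhere, while the other genes differ less and Slc7a11 is spread widely at a level near 0.

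Comparison of Tg-RKIP with FVB hearts addresses how these antioxidant genes stand in hearts that overexpress RKIP. Hmox1, heme oxygenase 1, rose to 2.70 times the FVB level, whereas Srxn1 and Gsr rose to 1.16 times and Slc7a11, from few reads, to 2.18 times. Nqo1 fell to 0.855 times with TMM, a direction that turned with library size only and in TPM. Nfe2l2, Keap1, Gclc, Gclm and Txnrd1 did not pass the threshold. Thus 4 of the 10 genes were higher and 1 lower, where 36.8% of all genes tested were higher and 37.1% lower (edgeR, quasi-likelihood test, Benjamini-Hochberg adjusted p under 0.05). The median log2 fold change of the 10 genes was 0.065 against 0.0085 for all genes. The same 4 genes were higher and Nqo1 lower without overlap between the groups in TMM-normalised counts, as in 38% and 37.7% of all genes. With library size only, all 10 were higher, against 62.6% of all genes higher and 17.1% lower. In TPM, 9 of the 10 genes, all but Slc7a11, were higher in every Tg-RKIP than in any FVB library. The same held for 64.3% of all genes. Slc7a11 was too low to be tested by limma on log2(TPM + 0.1), which called the other 9 higher, against 66.3% of all genes it tested.

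In hearts labelled Tg-GRK2, the genes lay at or below the FVB level. Gclm fell to 0.734 times, Hmox1 to 0.755 times, Nqo1 to 0.787 times and Nfe2l2 to 0.865 times the FVB level, and Srxn1 and Gclc fell to 0.884 and 0.885 times. Keap1, Txnrd1, Slc7a11 and Gsr did not pass the threshold. Thus 6 of 10 genes were lower and 0 higher, where 12.2% of all genes were lower and 12.2% higher by the same edgeR test. At an unadjusted p under 0.05, the count of higher genes was also 0, and limma on log2(TPM + 0.1) and DESeq2 gave 0 as well. Of the 6 lower calls, limma on log2(TPM + 0.1) lost Gclc (adjusted p = 0.198) and Srxn1 (0.0667). DESeq2 lost Gclc (adjusted p = 0.148). The median log2 fold change of the 10 genes was -0.18 against -0.0023 for all genes. These 6 genes did not overlap between the groups in TMM-normalised counts, as in 18.6% of all genes, and library size only gave the same counts of 0 higher and 6 lower, where it called 10.7% of all genes lower. Without Tg-GRK2 library 1, which stood apart, 5 were lower, and Gclc was not past the threshold. None of the 6 passed a test against a minimum fold of 1.5, which called 73 of all 15504 genes lower.

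Set against the hearts labelled Tg-GRK2, Tg-RKIP hearts were higher in 8 of the 10 genes, where 37.9% of all genes were higher and 36.6% lower. Hmox1 differed most among them, at 3.58 times the Tg-GRK2 level, followed by Slc7a11 at 2.34 times and Gclm at 1.44 times. Srxn1, Gsr, Nfe2l2, Gclc and Nqo1 were at 1.31, 1.22, 1.16, 1.13 and 1.09 times. Keap1 and Txnrd1 did not pass. Without Tg-GRK2 library 1, 6 were higher, and the calls of Slc7a11 (adjusted p = 0.0767) and Gclc (0.0563) were lost. With the most abundant transcript of each gene in place of its sum, 6 were higher too, where 4376 of 15177 genes were higher. The calls of Nqo1 (adjusted p = 0.178, edgeR), Gclc (0.103) and Slc7a11 (0.0582) were lost, while Keap1 passed (0.00819). Nqo1 and Gclc had the same reads in both settings, where only the normalisation and fit over all genes differed for them. With library size only, all 10 were higher, against 62% of all genes. The median log2 fold change was 0.25 for the 10 genes and 0.021 for all genes.

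**Figure D2:**
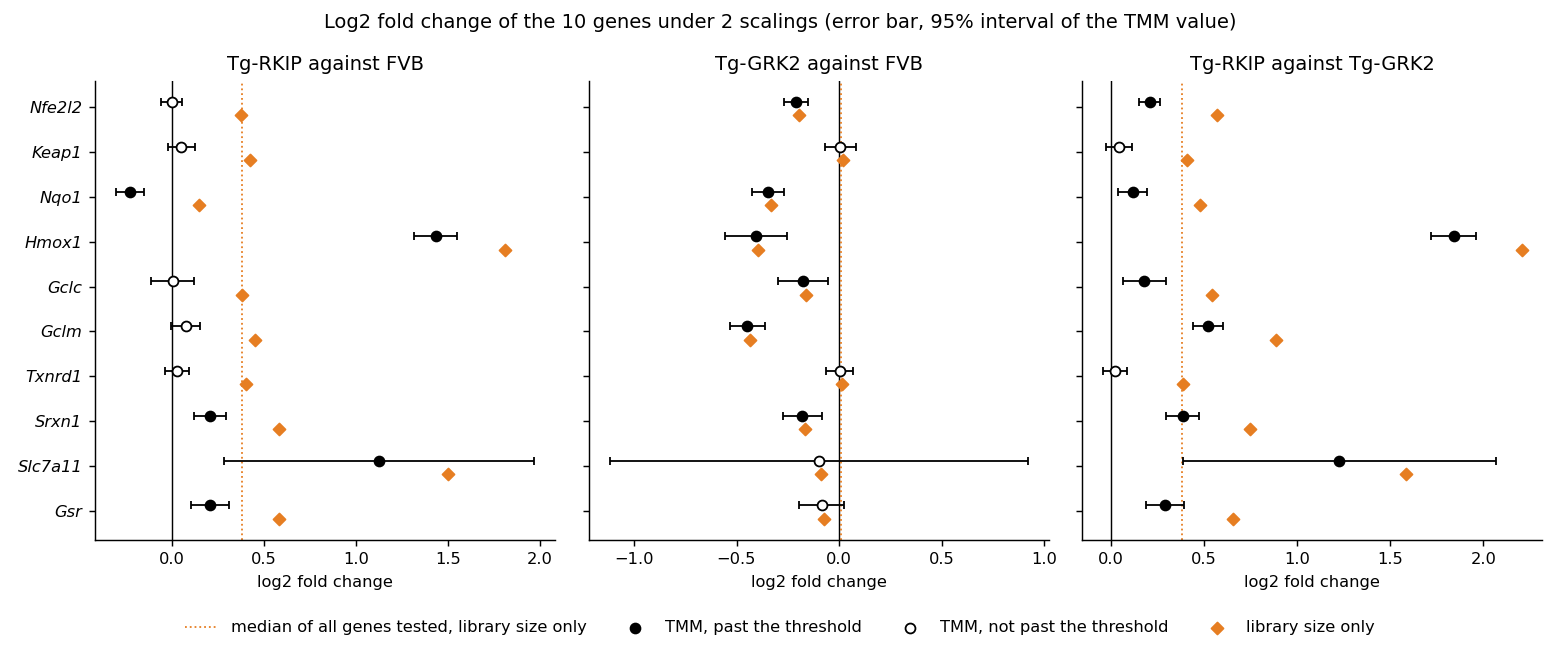
Log2 fold change (horizontal axis) of the 10 genes in the 3 comparisons, with circles for TMM-normalised counts (filled where past the threshold), bars for their 95% interval, diamonds for scaling to library size only and a dotted line for the median of all genes under that scaling. With Tg-RKIP, the diamonds shift to the right together with the dotted line at 0.38, whereas with Tg-GRK2 against FVB both scalings fall together.

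Nfe2l2 encodes NRF2 and lies on chromosome 2 from 75505857 to 75534985 in the coordinates of the files. Its level was 51.0, 51.7 and 48.9 TPM in FVB, 68.9, 67.6 and 65.9 TPM in Tg-RKIP and 44.7, 46.3 and 44.7 TPM in Tg-GRK2 labelled libraries. The 3 groups did not overlap in TPM, with Tg-RKIP highest and Tg-GRK2 lowest. On the TMM scale, however, the log2 fold change of Nfe2l2 in Tg-RKIP against FVB was 0.0003 (standard error 0.027, 95% interval -0.056 to 0.056, adjusted p = 0.993, edgeR). It fell in hearts labelled Tg-GRK2, by 0.21 on the log2 scale (standard error 0.028, adjusted p = 6.29e-06, edgeR). This was seen with every library left out in turn, with values from -0.23 to -0.19.

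Keap1, on chromosome 9 from 21141026 to 21150657, encodes the sensor that marks NRF2 for degradation. It was at 19.6, 21.2 and 19.7 TPM in FVB, 28.5, 28.3 and 27.6 TPM in Tg-RKIP and 20.7, 21.8 and 20.9 TPM in Tg-GRK2 labelled libraries. The Tg-RKIP libraries were above all others in TPM, and the other groups overlapped. On the TMM scale the log2 fold change was 0.0525 in Tg-RKIP (95% interval -0.019 to 0.12, adjusted p = 0.176, edgeR) and 0.0062 in Tg-GRK2 labelled hearts (95% interval -0.068 to 0.080, adjusted p = 0.928, edgeR), each against FVB. Without FVB library 2, Keap1 passed in Tg-RKIP with a log2 fold change of 0.083 (adjusted p = 0.0458).

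Hmox1 encodes the inducible heme oxygenase, which cleaves heme into biliverdin, iron and carbon monoxide, and lies on chromosome 8 from 75820249 to 75827217. Its reads numbered 269, 306 and 247 in FVB, 887, 1106 and 877 in Tg-RKIP and 217, 224 and 221 in Tg-GRK2 labelled libraries. In TPM these were 9.44, 9.43 and 8.77, then 33.8, 32.7 and 33.7, then 7.30, 7.83 and 6.57. The lowest Tg-RKIP library, at 32.7 TPM, was far above the highest of the others, at 9.44 TPM, and the Tg-GRK2 libraries were all below FVB. The log2 fold change was 1.43 in Tg-RKIP against FVB (standard error 0.056, 95% interval 1.32 to 1.55, adjusted p = 7.43e-16, edgeR) and stayed between 1.40 and 1.45 with any library left out. Of all genes tested, 10.2% were past the threshold and higher by at least 1 on the log2 scale, which here holds for Hmox1 and Slc7a11. Hmox1 fell by 0.41 on the log2 scale in hearts labelled Tg-GRK2 (standard error 0.073, adjusted p = 0.000226, edgeR).

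Macrophages, which take up red blood cells and heme, are known to express Hmox1, and their markers moved with it in Tg-RKIP hearts. Of 12 macrophage markers, 11 were higher and 1 lower in Tg-RKIP against FVB (36.8% and 37.1% of all genes), with a summed level of 867 to 868 TPM against 338 to 348 TPM. Cd68, a lysosomal protein of macrophages, was at 9.88 ± 0.295 TPM in FVB and at 34.8 ± 0.904 TPM in Tg-RKIP libraries (SD, n = 3 each). The lower one was Cd163, the scavenger receptor for haemoglobin bound to haptoglobin, with a log2 fold change of -0.15 that became 0.22 with library size only. In the group labelled Tg-GRK2, 6 markers were higher and 1 lower (12.2% of all genes each way), with a summed level of 379 to 393 TPM, while Hmox1 was lower. Erythroid markers, mostly globins, were higher in both transgenic groups, in 6 of 6 genes tested, with summed levels of 3477 to 3645 TPM in Tg-RKIP, 1666 to 1691 TPM in Tg-GRK2 and 739 to 753 TPM in FVB libraries. The part of macrophages and blood in the level of Hmox1 was not tested.

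Gclc and Gclm encode the catalytic and the modifier subunit of glutamate-cysteine ligase, the rate-limiting enzyme of glutathione synthesis, and lie on chromosome 9 from 77661817 to 77701767 and on chromosome 3 from 122039206 to 122064381. Gclc was at 7.51, 7.15 and 8.06 TPM in FVB, 10.02, 10.03 and 10.38 TPM in Tg-RKIP and 6.48, 7.26 and 7.05 TPM in Tg-GRK2 labelled libraries. Gclm was at 24.9, 26.5 and 25.3 TPM in FVB, 39.7, 31.2 and 33.2 TPM in Tg-RKIP and 19.3, 22.5 and 20.8 TPM in Tg-GRK2 labelled libraries. Gclm separated the 3 groups in TPM, whereas Gclc of the FVB and Tg-GRK2 libraries overlapped. Neither subunit passed in Tg-RKIP against FVB, with log2 fold changes of 0.0057 for Gclc (95% interval -0.11 to 0.12, adjusted p = 0.93) and 0.077 for Gclm (95% interval -0.0017 to 0.16, adjusted p = 0.0719, edgeR), but Gclm passed without FVB library 1 (adjusted p = 0.0287) or Tg-RKIP library 3 (0.0424). Gclm fell in hearts labelled Tg-GRK2, by 0.45 (standard error 0.041, adjusted p = 3.82e-08, edgeR), which is the lowest log2 fold change of the 10 genes with TMM in this comparison, whereas by limma on log2(TPM + 0.1) Hmox1 (-0.35) and Nqo1 (-0.30) lay below Gclm (-0.29). Gclc fell by 0.18 (standard error 0.058, adjusted p = 0.0316, edgeR), and its call was lost without Tg-GRK2 library 1 (adjusted p = 0.159), FVB library 1 (0.0567) or FVB library 3 (0.169), and also by limma on log2(TPM + 0.1) (0.198).

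Slc7a11 encodes the cystine transporter xCT, which supplies cysteine for glutathione, and lies on chromosome 3 from 49846975 to 50398063. Only 5, 7 and 8 of the reads in FVB, 19, 22 and 16 in Tg-RKIP and 2, 7 and 11 in Tg-GRK2 labelled libraries fell on it. In reads, the Tg-RKIP libraries were above all others, whereas in TPM, where the length of the transcript that gets a read counts, they overlapped with FVB. The log2 fold change of 1.13 in Tg-RKIP against FVB had a standard error of 0.40 (adjusted p = 0.0163, edgeR), and the call was lost without FVB library 1 (adjusted p = 0.0697) or FVB library 2 (0.054). The log2 fold change of Tg-GRK2 labelled hearts was -0.099, with a 95% interval from -1.12 to 0.92, so that this depth leaves room for a difference of either sign.

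Gsr encodes glutathione reductase, which regenerates reduced glutathione with NADPH, and lies on chromosome 8 from 34142551 to 34188191. It was at 11.5, 13.0 and 12.1 TPM in FVB, 19.1, 19.2 and 18.3 TPM in Tg-RKIP and 12.0, 11.4 and 12.4 TPM in Tg-GRK2 labelled libraries. Tg-RKIP libraries were above the others, and the other groups overlapped. The log2 fold change was 0.21 in Tg-RKIP against FVB (standard error 0.050, adjusted p = 0.000797, edgeR), and -0.084 in Tg-GRK2 labelled hearts (95% interval -0.19 to 0.026, adjusted p = 0.281, edgeR).

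Txnrd1 encodes the cytosolic thioredoxin reductase, a selenoprotein, and lies on chromosome 10 from 82669785 to 82733546. Its level was 29.1, 29.8 and 27.5 TPM in FVB, 39.9, 39.3 and 39.3 TPM in Tg-RKIP and 30.2, 30.6 and 29.0 TPM in Tg-GRK2 labelled libraries. On the TMM scale it had a log2 fold change of 0.028 in Tg-RKIP (95% interval -0.037 to 0.093, adjusted p = 0.429, edgeR) and of 0.0032 in Tg-GRK2 labelled hearts (95% interval -0.064 to 0.070, adjusted p = 0.961, edgeR), each against FVB. Srxn1 encodes sulfiredoxin, which repairs overoxidised peroxiredoxins, and lies on chromosome 2 from 151947436 to 151953296. Srxn1 was at 14.1, 13.9 and 13.9 TPM in FVB, 22.6, 21.5 and 20.6 TPM in Tg-RKIP and 12.4, 12.6 and 13.2 TPM in Tg-GRK2 labelled libraries, with no overlap among the 3 groups. It rose by a log2 fold change of 0.21 in Tg-RKIP (standard error 0.042, adjusted p = 0.000127, edgeR) and fell by 0.18 in hearts labelled Tg-GRK2 (standard error 0.045, adjusted p = 0.00513, edgeR). The latter call was lost by limma on log2(TPM + 0.1), with adjusted p = 0.0667.

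Nqo1 encodes a quinone reductase that transfers both electrons at once and is widely used as a readout of NRF2. It lies on chromosome 8 from 108114857 to 108129838. Nqo1 was at 58.1, 53.3 and 57.6 TPM in FVB, 65.0, 63.6 and 64.3 TPM in Tg-RKIP and 46.8, 44.1 and 46.6 TPM in Tg-GRK2 labelled libraries. The 3 groups did not overlap, and Tg-RKIP was highest in TPM. Its TPM differed by less than the median of all genes, and its TMM-normalised log2 fold change in Tg-RKIP was -0.23 (standard error 0.036, adjusted p = 8.66e-06, edgeR), whereas limma on log2(TPM + 0.1) gave 0.19 and library size only gave 0.15, each of which passed. Nqo1 also fell in hearts labelled Tg-GRK2, where the scales differed little, by 0.34 on the log2 scale (standard error 0.037, adjusted p = 4.44e-07, edgeR), and by 0.33 with library size only.

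Ratios of genes within a library do not depend on the scale of the library, and 5 of them were compared in 3 comparisons each. They were taken from TPM and so still depend on how reads were divided among transcripts of unlike length. An exact two-sided permutation test of 3 against 3 libraries cannot go below p = 0.1, which is 0.115 after Benjamini-Hochberg adjustment over the 15 tests. Keap1 over Nfe2l2 was 0.399 ± 0.0136 in FVB, 0.417 ± 0.00315 in Tg-RKIP and 0.467 ± 0.00327 in Tg-GRK2 labelled hearts (SD, n = 3 each), without overlap. Bach1 encodes a repressor that competes with NRF2 for the same elements. Bach1 over Nfe2l2 was 0.203 ± 0.00828 in FVB, 0.133 ± 0.00226 in Tg-RKIP and 0.247 ± 0.0157 in Tg-GRK2 labelled hearts, again without overlap. Each of these 6 differences had the smallest exact p of 0.1.

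Hmox1 over Hmox2, which encodes the constitutive heme oxygenase, was 0.152 ± 0.00926 in FVB, 0.415 ± 0.0127 in Tg-RKIP and 0.123 ± 0.00860 in Tg-GRK2 labelled hearts (SD, n = 3 each), so the rise and the fall of Hmox1 were also seen within libraries (exact permutation p = 0.1 for each comparison). Txnrd1 over Txnrd2, the mitochondrial thioredoxin reductase, was 1.23 ± 0.0602 in FVB, 1.60 ± 0.0396 in Tg-RKIP and 1.17 ± 0.102 in Tg-GRK2 labelled hearts. Tg-RKIP was above both other groups here (exact permutation p = 0.1), and the other groups overlapped (p = 0.4). Txnrd2 itself had a log2 fold change of -0.47 in Tg-RKIP against FVB with TMM (adjusted p = 4.84e-09, edgeR) and of -0.099 with library size only. Gclm over Gclc was 3.39 ± 0.289 in FVB, 3.43 ± 0.470 in Tg-RKIP and 3.01 ± 0.0755 in Tg-GRK2 labelled hearts. It overlapped between Tg-RKIP and FVB (exact permutation p = 0.9) and was lower without overlap in the group labelled Tg-GRK2 (p = 0.1). With read counts in place of TPM, its log2 difference in Tg-GRK2 labelled hearts against FVB was -0.27 rather than -0.17. That of Txnrd1 over Txnrd2 in Tg-RKIP against FVB was 0.50 rather than 0.38, and that of Hmox1 over Hmox2 was 1.42 rather than 1.45.

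**Figure D3:**
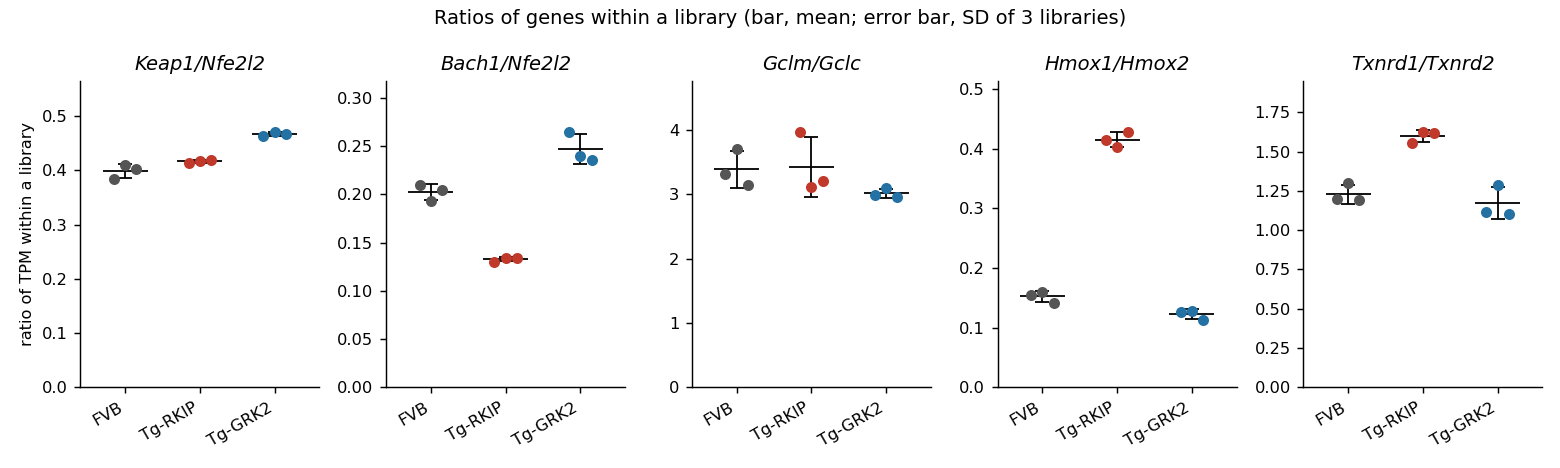
Ratio of TPM values within a library (vertical axis) for 5 pairs of genes, with points for libraries of FVB, Tg-RKIP and Tg-GRK2, a bar for the mean and an error bar for the SD. Hmox1 over Hmox2 is at 0.402 to 0.428 in Tg-RKIP, Bach1 over Nfe2l2 is lowest in Tg-RKIP, and Keap1 over Nfe2l2 is highest in Tg-GRK2.

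The reads of a gene were divided among its transcripts by the authors' counting, in a way that is not stated in the sources used here, and shares of transcripts are described without a test. Nqo1 has 1 transcript in the tables. For Gclc, Gsr, Srxn1, Hmox1 and Nfe2l2, 1 transcript took nearly all reads, from 99.0% to 100% in any library. Gclm was divided between ENSMUST00000029769, of 5589 bases, with 63.0%, 65.2% and 59.2% of the reads in FVB, Tg-RKIP and Tg-GRK2 labelled hearts, and ENSMUST00000149983, of 1088 bases, with 27.7%, 29.4% and 24.6%. A read on a short transcript counts for more TPM. In Tg-RKIP, Gclm ran from 31.2 to 39.7 in TPM, whereas its reads, scaled by TMM to the same library size, ran from 38.2 to 40.2.

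Keap1 reads were mostly given to ENSMUST00000194542, with 77.1%, 85.7% and 75.6% in FVB, Tg-RKIP and Tg-GRK2 labelled hearts, and to ENSMUST00000049567, with 13.5%, 12.4% and 13.9%. A further Keap1 transcript, ENSMUST00000164812, was singled out after its values were seen. It took 10.8%, 7.68% and 8.09% of the reads in FVB, 1.99%, 1.61% and 2.00% in Tg-RKIP and 9.14%, 9.15% and 8.79% in Tg-GRK2 labelled libraries, so that the Tg-RKIP libraries were below all others. Txnrd1 reads fell mainly on ENSMUST00000020484, with 86.4%, 94.1% and 89.9%. Its second transcript, ENSMUST00000219442, took 14.9%, 10.4% and 13.1% in FVB, 5.06%, 5.10% and 7.12% in Tg-RKIP and 11.1%, 10.7% and 7.13% in Tg-GRK2 labelled libraries. Here, too, Tg-RKIP was below FVB in every library, but 1 Tg-GRK2 library came close to it. With 1 read length of 50 bases and transcripts that share most exons, how far these shares follow the transcripts themselves was not tested. When each gene was replaced by its most abundant transcript, Keap1 passed in Tg-RKIP against FVB with a log2 fold change of 0.17 (adjusted p = 0.0103, edgeR) and Txnrd1 with 0.11 (adjusted p = 0.0465, edgeR).

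**Figure D4:**
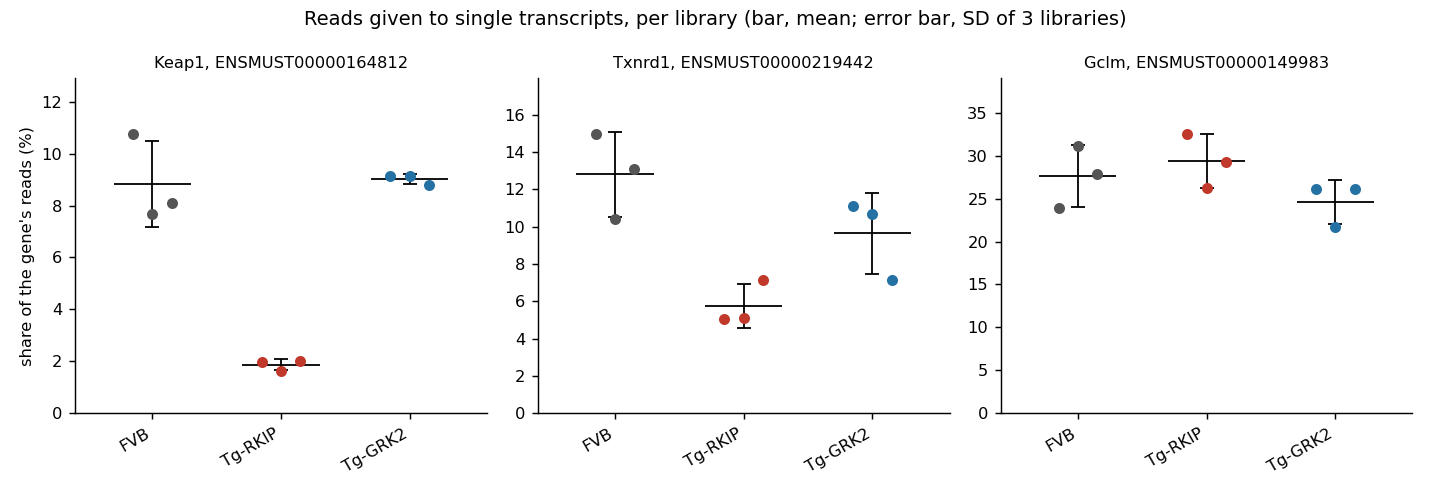
Share of a gene's reads (vertical axis, percent) given to 1 transcript each of Keap1, Txnrd1 and Gclm in the libraries of FVB, Tg-RKIP and Tg-GRK2, with points for libraries, a bar for the mean and an error bar for the SD. The Keap1 transcript is at 1.61% to 2.00% in Tg-RKIP and at 7.68% to 10.8% elsewhere, whereas the Gclm transcript overlaps among the groups.

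Of 19 partners and regulators of NRF2 tested, 8 were higher and 7 lower in Tg-RKIP against FVB, shares near the 36.8% and 37.1% of all genes. Scaled to library size only, 12 were higher and 2 lower, where 62.6% of all genes were higher and 17.1% lower. The small MAF genes Maff and Mafk, whose proteins pair with NRF2 or with BACH1, rose by log2 fold changes of 1.32 and 0.96 (standard errors 0.071 and 0.033). Sqstm1, the p62 protein that binds KEAP1 and carries it to autophagy, rose by 0.86 (standard error 0.017), with 905 ± 7.57 TPM in Tg-RKIP against 348 ± 8.42 TPM in FVB hearts (SD, n = 3 each). Cul3, the scaffold of the ligase that KEAP1 recruits, and the repressors Bach1 and Bach2 fell by 0.74, 0.61 and 0.58 on the log2 scale, past the threshold in the edgeR test. Bach1 and Cul3 were also lower with library size only, with log2 fold changes of -0.23 and -0.36, whereas Bach2, at -0.21, was then not past the threshold. In TPM, Cul3 was at 86.6 ± 2.27 in FVB and 87.2 ± 8.69 in Tg-RKIP libraries (SD, n = 3 each). In hearts labelled Tg-GRK2, 3 of the 19 were higher and 4 lower against FVB, where 12.2% of all genes were higher and 12.2% lower. Sqstm1 fell there by 0.25, Trim21 by 0.30 and Crebbp, a coactivator, by 0.20, while Gsk3b, a kinase that promotes NRF2 degradation, rose by 0.16, Fbxw11 by 0.13 and Nfe2l1, a relative of NRF2, by 0.088.

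Of 34 other genes known as NRF2 targets, 23 were higher and 8 lower in Tg-RKIP against FVB (36.8% and 37.1% of all genes), with a median log2 fold change of 0.39 against 0.0085 for all genes. Library size only gave 30 higher and 3 lower (62.6% and 17.1% of all genes). Fth1, Ftl1, Blvrb and Slc48a1 are counted again below among the heme and iron genes, and Txn1 and Prdx1 among the thioredoxin and peroxiredoxin genes. The glutathione transferase Gsta1 rose from 4.10 ± 0.146 TPM to 15.7 ± 0.425 TPM (SD, n = 3 each), or by 1.56 on the log2 scale with TMM, although reads may be shared with its close relatives. The aldo-keto reductase Akr1b8 and the carbonyl reductase Cbr3 rose by 1.43 and 1.14. Entpd5, Idh1 and Me1, the last 2 of which make NADPH, fell by 0.88, 0.55 and 0.43. With library size only, the log2 fold changes of Entpd5, Idh1 and Me1 were -0.51, -0.18 and -0.051, and Me1 was at 61.9 ± 0.266 TPM in FVB and 61.5 ± 0.588 TPM in Tg-RKIP libraries (SD, n = 3 each). Tg-GRK2 labelled hearts had 4 of the 34 higher and 14 lower (12.2% of all genes each way), with a median of -0.053 against -0.0023 for all genes. Gsta3 fell by 0.47, Osgin1 by 0.41 and Ephx1, the microsomal epoxide hydrolase, by 0.27, while Tkt and Pgd of the pentose phosphate pathway rose by 0.29 and 0.14 and Gstm2 by 0.18. All of these passed the threshold in the edgeR test, but without Tg-GRK2 library 1 the count of lower genes in this group was 9.

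Of 23 genes of glutathione metabolism outside the 10, 11 were higher and 9 lower in Tg-RKIP hearts, where 36.8% of all genes were higher and 37.1% lower, and their median log2 fold change was 0.12. Library size only gave 18 higher and 3 lower (62.6% and 17.1% of all genes). In hearts labelled Tg-GRK2, 2 were higher and 6 lower (12.2% of all genes each way). In the latter group, 3 were lower without Tg-GRK2 library 1 or FVB library 3, and 1 was higher without FVB library 1. The glutathione peroxidases Gpx3, which is secreted, and Gpx1 rose by log2 fold changes of 1.81 and 1.29 in Tg-RKIP, and Chac1, which degrades glutathione, rose by 1.77. Gstk1, a transferase of mitochondria and peroxisomes, Chac2 and Oplah fell by 1.51, 1.41 and 0.67. Oplah was at -0.29 with library size only, and in TPM its direction turned, with 23.2 to 25.9 TPM in FVB and 27.1 to 29.2 TPM in Tg-RKIP libraries. Glrx5 rose by 0.12 in hearts labelled Tg-GRK2, while Gpx8, Hagh and Gpx4 fell by 0.16, 0.13 and 0.12.

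Among thioredoxin, peroxiredoxin, superoxide dismutase and catalase genes, 9 of 23 were higher and 11 lower in Tg-RKIP against FVB, beside 36.8% and 37.1% of all genes, and the median log2 fold change was -0.062. Library size only gave 15 higher and 6 lower (62.6% and 17.1% of all genes). Extracellular Sod3 rose by 1.35, Sesn2 by 0.96 and Prdx4, a peroxiredoxin of the endoplasmic reticulum, by 0.71. Sod2, Msrb2 and Prdx3, which encode mitochondrial enzymes, fell by 0.97, 0.95 and 0.75, and by 0.59, 0.58 and 0.38 with library size only. Txn2 and Prdx5, which also encode mitochondrial proteins and were named after their values were seen, had log2 fold changes of -0.25 and -0.13 with TMM but 0.12 and 0.25 with library size only. Against FVB, 3 were higher and 10 lower in hearts labelled Tg-GRK2 (12.2% of all genes each way). Txnip, which inhibits thioredoxin, rose there by 0.48, Sesn3 by 0.24 and Sod3 by 0.19, while Msrb1, Prdx2 and Prdx4 fell by 0.28, 0.18 and 0.17.

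Sources of oxidants were higher in 9 of 15 genes tested and lower in 4 in Tg-RKIP hearts, with a median log2 fold change of 0.63, where 36.8% of all genes were higher and 37.1% lower. With library size only, 11 were higher and 2 lower (62.6% and 17.1% of all genes). Nox4, the NADPH oxidase that makes hydrogen peroxide, rose from an FVB level of 1.99 ± 0.172 TPM to 7.97 ± 0.191 TPM (SD, n = 3 each), or by 1.58 on the log2 scale with TMM. Rac2, a subunit of the phagocyte oxidase, and Maoa, monoamine oxidase A, rose by 1.36 and 1.23, while Maob and Nos2 fell by 0.88 and 0.62. Nos2 was at -0.25 with library size only. Xdh fell by 0.32 with TMM but was at 0.059 with library size only, and in TPM it was higher, at 59.8 in Tg-RKIP and 39.5 in FVB on average. In hearts labelled Tg-GRK2, 1 of the 15 was higher, Nos2 by 0.32, and 2 were lower, Xdh by 0.48 and Nos3 by 0.15 (12.2% of all genes each way). These small counts moved with single libraries, to 0 higher without Tg-GRK2 library 1, 2 higher and 1 lower without Tg-GRK2 library 3, and 1 lower without FVB library 1.

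Genes of heme and iron handling were higher in 7 of 15 and lower in 6 in Tg-RKIP hearts, near the 36.8% and 37.1% of all genes. Their median log2 fold change was 0.052. With library size only, 11 were higher and 3 lower (62.6% and 17.1% of all genes). Cd163, which is in this list, is also counted among the macrophage markers above. Hp, which encodes haptoglobin, rose by 2.97, the ferritin light chain Ftl1 by 0.94 and the biliverdin reductase Blvrb by 0.70. Tfrc, the transferrin receptor, and Fech and Alas1, the last and the first enzyme of heme synthesis, fell by 1.08, 0.71 and 0.70. The hearts labelled Tg-GRK2 had 4 higher and 5 lower (12.2% of all genes each way), and Hp, Tfrc and Alas1 rose by 1.15, 0.58 and 0.19 while Cd163, Cp and Ftl1 fell by 0.40, 0.22 and 0.19. Tfrc and Alas1 thus lay below FVB in Tg-RKIP and above it in Tg-GRK2 labelled hearts, and Ftl1 the other way round, as did Hmox1.

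**Figure D5:**
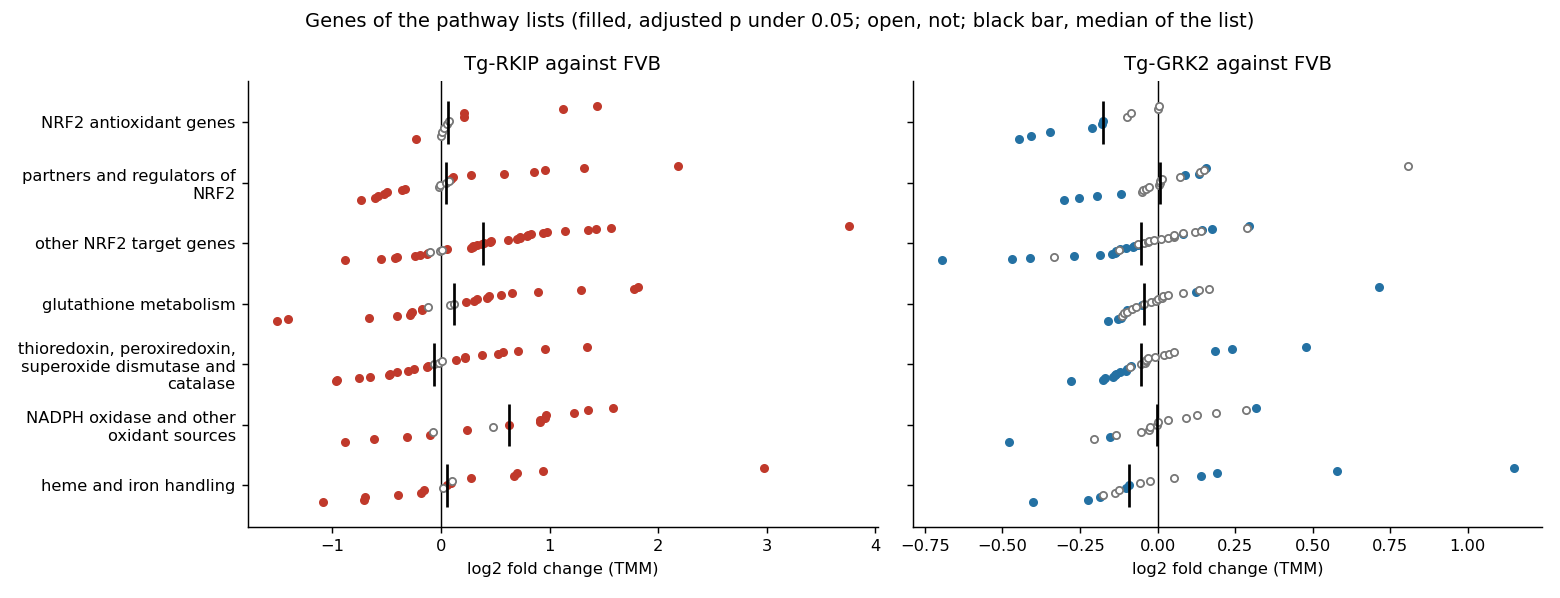
Log2 fold change with TMM (horizontal axis) of each gene tested in the 10 antioxidant genes and 6 further lists, for Tg-RKIP and Tg-GRK2 labelled hearts against FVB, with filled points past the threshold and a black bar for the median of a list. The median of the other NRF2 target genes is at 0.39 and that of oxidant sources at 0.63 in Tg-RKIP, while in Tg-GRK2 the 10 genes have a median of -0.18 and the axis is narrower.

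Markers of other cells moved with the groups as well. Airway epithelium markers, which a heart should lack, had a summed level of 96.9 to 103 TPM in Tg-RKIP, 205 to 214 TPM in Tg-GRK2 and 0.479 to 0.873 TPM in FVB libraries, and their defining marker Scgb1a1 was listed at 0 in each FVB library. Airway epithelium is known to express Gsta3, Ephx1 and other genes of these lists. Against FVB, Gsta3 had log2 fold changes of -0.012 in Tg-RKIP and -0.47 in Tg-GRK2 labelled hearts, and Ephx1 of 0.97 and -0.27. Fibroblast markers were higher in 8 of 8 genes in Tg-RKIP and in 5 of 8 in Tg-GRK2 labelled hearts, where 36.8% and 12.2% of all genes were higher. Adipocyte markers were higher in 10 of 10 and in 7 of 10, but in Tg-GRK2 labelled hearts Fabp4, the fatty acid binding protein of adipocytes, fell by 0.29 (adjusted p = 1.06e-08, edgeR). The summed level of adipocyte markers was 1044 to 1070 TPM in Tg-RKIP, 533 to 566 TPM in Tg-GRK2 and 605 to 637 TPM in FVB libraries, so the sum was lower in Tg-GRK2 than in FVB libraries. Cardiomyocyte markers summed to 64145.1 to 65580.5 TPM in Tg-RKIP, 63913.8 to 65960.9 TPM in Tg-GRK2 and 67341.9 to 67747.6 TPM in FVB libraries. With TMM, 9 of 10 were lower and 0 higher in Tg-RKIP against FVB, where 37.1% of all genes were lower and 36.8% higher. With library size only, 7 were lower and 3 higher (17.1% and 62.6% of all genes). In hearts labelled Tg-GRK2, 7 of 10 were lower and 3 higher against FVB (12.2% of all genes each way). Endothelial markers were higher in 4 and lower in 3 of 7 in Tg-RKIP hearts, where 36.8% of all genes were higher and 37.1% lower. In Tg-GRK2 labelled hearts, 1 of the 7 was higher and 3 were lower (12.2% of all genes each way). The part of these cells in the levels of the antioxidant genes was not tested.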

How the data were processed

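From hearts of Tg-RKIP, Tg-GRK2 labelled and FVB mice, 3 libraries each were sequenced with single reads of 50 bases from random-primed, fragmented mRNA. The authors deposited read counts per transcript and library without normalisation, as whole numbers, and TPM values per transcript, in which reads per transcript length are brought to 1 common sum for all libraries. The submitters' processing notes name GRCm build 39, and coordinates of genes are given as deposited. The aligner and the counting program are not given in the sources used here, nor is the use of strand. Reads of overlapping genes could thus not be told apart, but such genes held at most 24 reads in any library.

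Counts and TPM were summed by gene name. The test of counts was that of edgeR 4.0.16 in R 4.3.3 (TMM, filterByExpr, glmQLFit and glmQLFTest, 1 mean per group for all 9 libraries), with Benjamini-Hochberg adjustment over 15504 genes and a threshold of 0.05. The authors tested single genes in TPM, and a count model was used here because counts were deposited. Ratios within a library were compared by exact two-sided permutation tests. Alternative scalings were library size only, size factors of DESeq2 and TMM without the reads of mitochondrial genes, Pebp1 and Pbp2. On average, Pbp2 was at 3304 TPM in Tg-RKIP, 0 TPM in Tg-GRK2 labelled and 0.0849 TPM in FVB libraries. Other tests were DESeq2 1.42.0 and limma 3.58.1 on log2(TPM + pseudocount). For limma, the pseudocount was 0.1 or 1, and genes had to reach 1 TPM in 3 or more libraries. Further alternatives were other filters on low counts, a minimum fold of 1.5, a replicate block and a fit of the groups compared alone. The most abundant transcript and each library left out were used as well. Scripts were tested on simulated data. All 10 genes are named, and of each further list up to 3 genes with the largest and 3 with the smallest log2 fold change against FVB among those past the threshold with a mean of at least 100 reads in the higher group. The genes and lists were chosen with earlier results of these data known.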

Additional observations from a re-analysis of the deposited data

How the results depend on the processing

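Leaving out each library in turn gave 4 to 5 higher and 1 lower of the 10 genes in Tg-RKIP against FVB, 0 higher and 5 to 6 lower in Tg-GRK2 against FVB, and 6 to 8 higher and 0 lower in Tg-RKIP against Tg-GRK2. In Tg-RKIP against FVB, library size only gave 10 genes higher and 0 lower. Without Slc7a11, which its TPM filter removed, limma on log2(TPM + 0.1) or log2(TPM + 1) gave 9 higher and 0 lower. With the former, 66.3% of all genes tested were higher. Nqo1 reversed to 0.15, 0.19 and 0.19 under these settings, respectively. Tested against a minimum fold of 1.5, 1 gene was higher and 0 lower in Tg-RKIP against FVB. Of all 15504 genes, 1975 were higher and 1690 lower there. In Tg-GRK2 against FVB, 0 were lower, where 73 of all genes were. In Tg-RKIP against Tg-GRK2, 1 was higher, where 2033 of all genes were. In Tg-GRK2 against FVB, limma on log2(TPM + 0.1) made 68.5% of the genes called higher, against 49.96% in edgeR.

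Differences near 0 changed sign. In Tg-RKIP against FVB, Nfe2l2 was at -0.0071 without a filter, -0.036 with the most abundant transcript and -0.025 to 0.016 with a library left out, and Gclc at -0.0015, -0.034 and -0.040 to 0.049. Txnrd1 was at -0.0076 to 0.052 with a library left out, and the ratio of Gclm to Gclc at -0.099 to 0.078. In Tg-GRK2 against FVB, the most abundant transcript gave -0.0063 for Keap1 and 0.33 for Slc7a11, and leaving out a library gave -0.015 to 0.041 for Keap1, -0.027 to 0.031 for Txnrd1 and -0.58 to 0.31 for Slc7a11. In Tg-RKIP against Tg-GRK2, Txnrd1 was at -0.0028 to 0.039, and the ratio of Keap1 to Nfe2l2 at 0.018 with the most abundant transcript. The cause was not tested. Slc7a11 in Tg-RKIP against FVB (adjusted p = 0.0579) and Gclc in Tg-GRK2 against FVB (0.148) were not past the threshold with DESeq2.

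The replicate numbers did not pair the libraries, as deviations of same-numbered libraries correlated between -0.057 and 0.046. With a replicate block, Tg-RKIP against FVB gave 4 genes higher and 1 lower, 6 were lower in Tg-GRK2 against FVB and 8 higher in Tg-RKIP against Tg-GRK2.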
